A study of Homo sapiens with 6 samples.

Results

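The RNAs described here are those of ion channels and G protein-coupled receptors among the RNAs that the authors listed as precipitated with PD-L1. They were chosen by gene symbol from the authors' table of 3152 RNAs, with the prefixes KCN, CACN, CLCN, SCN, TRPC, TRPM, TRPV, RYR, ITPR, P2R, ADGR, LGR, FZD, HTR, ADRA, ADRB, CHRM, GRM and TAS, and ANO, GPR or OR followed by a digit. This gave 40 RNAs, 14 with the prefixes of channels, their subunits and regulators and 26 with those of receptors. The 26 include P2RX2 and P2RX5, receptors for ATP that are themselves ion channels. Symbols are not functions, so the 40 include KCNRG, a soluble regulator of potassium channels, and ANO6, a lipid scramblase as well as an ion channel. GPR107 and GPR180 have several membrane-spanning helices but are not classical G protein-coupled receptors.

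Ion channels are membrane proteins that let ions pass down their gradient, opened by voltage, ligands, calcium or stretch, and they often work with auxiliary subunits that set how they open. G protein-coupled receptors bind a signal outside the cell and activate G proteins inside it, which act on enzymes that make cyclic AMP or release calcium through the IP3 receptor of the endoplasmic reticulum. Many receptors named GPR with a number had no known ligand when they were named, and many genes of this class are known from neurons, retina, muscle or immune cells.

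RNA was immunoprecipitated from MDA-MB-231, a human triple-negative breast cancer cell line, with an antibody against PD-L1 (3 libraries, repeats 1 to 3) or with its IgG isotype as control (3 libraries, repeats 1 to 3). Both groups came from cells crosslinked with formaldehyde and sonicated, and nothing in the labels sets them apart but the antibody. The labels do not say whether repeats came from separate cultures, so p-values measure the spread between these libraries, which may be technical. PD-L1 is a membrane protein that binds PD-1, a receptor of T cells.

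For every gene and library the authors' table gives summed peak scores, called the score of that gene from here on. Where it is 0, the gene had no scored peak. Read numbers per library are unknown, and intervals for counting error cannot be given. Summed over the 3152 listed RNAs, scores were 123921 to 217732 in the PD-L1 libraries and 8353 to 19288 with IgG. The 40 RNAs made up 1.09 to 1.27% of these sums with PD-L1 and 0.995 to 1.12% with IgG. Since the precipitates come from a bulk lysate and no input library was used here, more RNA in the cell and more RNA per precipitated protein cannot be told apart. Of 10 mesenchymal markers of this cell line only ZEB1 was listed, of 10 epithelial markers only CLDN4, of 8 neuronal markers 0, and of 8 striated muscle markers ACTA1 and MYBPC3. VIM, CD44 and AXL were not among the listed RNAs, so the cell type cannot be checked from a table of selected RNAs.

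The share of genes listed differed between classes of channels and receptors. Receptors named GPR with a number were the largest group, with 19 of the 79 protein-coding genes that carry such a symbol in GENCODE release 29 (24.1%). The TRP prefixes had 4 of 22, P2R 3 of 18, ADGR 3 of 28, KCN 6 of 97 and CACN 2 of 26. CHRM had 1 of 5, ANO 1 of 10, and RYR with ITPR 1 of 11. For comparison, 15.5% of all protein-coding genes of this annotation were listed. Another 9 prefix groups, with 493 protein-coding genes together, had 0 listed: olfactory receptors (0 of 386), taste receptors (0 of 28), HTR (0 of 21), SCN (0 of 19), FZD (0 of 10), CLCN (0 of 9), ADRA and ADRB (0 of 9), GRM (0 of 8) and LGR (0 of 3). Over all prefixes 40 of 789 genes (5.07%) were listed, and 9.93% of the 403 that are not olfactory receptors. A prefix can also hold unrelated genes, such as the HTRA proteases under HTR and ITPRIP, an IP3 receptor-interacting protein, under ITPR. The authors' deposited table gives 59 of 1194 genes of G-protein coupled receptor signalling (p = 2.44e-22), 5 of 453 of sensory perception of smell (p = 2.63e-19) and 1 of 467 of the sensory detection of chemical stimuli (p = 1.6e-25), all under-represented. RNAs outside the table were not analysed here, so these shares carry no test.

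**Figure D1:**
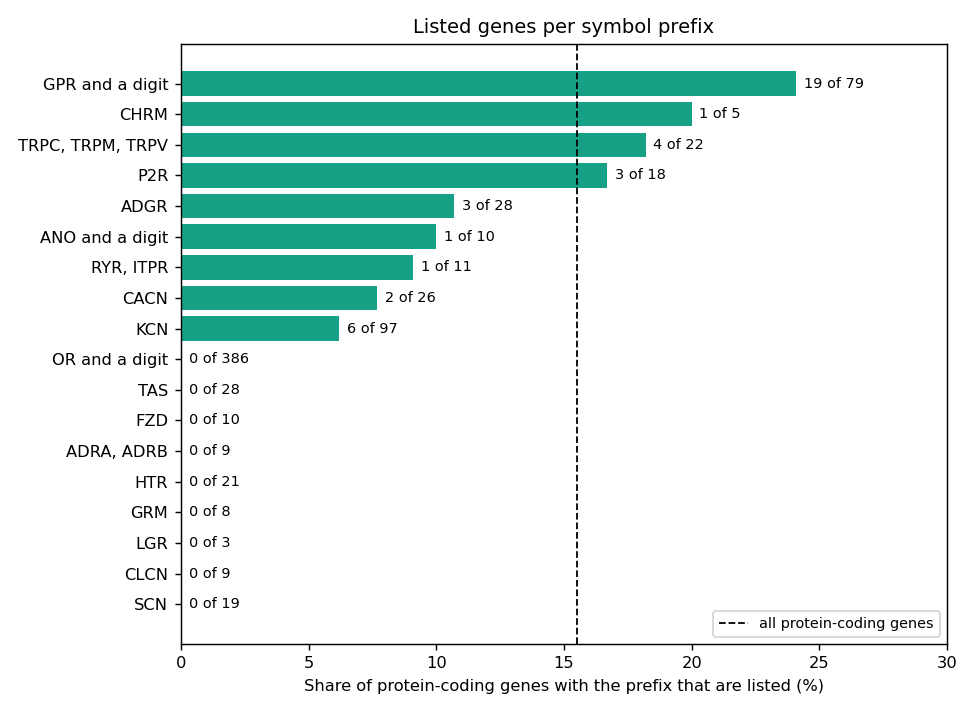
Share of protein-coding genes with each symbol prefix that are in the authors' table (x axis, percent), with listed and total genes beside each bar. The dashed line is the share of all protein-coding genes, 15.5%. GPR with a number reached 24.1%, while 0 of 386 olfactory receptor genes were listed.

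The main comparison asks how far these RNAs stood above the isotype control. All 40 had a score in each PD-L1 library, and 16 of them (40%) were at 0 in all 3 IgG libraries, against 31.7% of all listed RNAs. In the other 24 the ratio of the group means ran from 5.06 to 46.4 with a median of 11.5, against a median of 10.5 over the table. The authors required a value at least 5 times that of IgG for listing, so the direction is set by that selection, and tests on these libraries are no independent evidence of enrichment.

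The 3 PD-L1 scores lay above the 3 IgG scores in 39 of the 40 RNAs, against 95.9% of the table. In limma on log2(score + 1) with Benjamini-Hochberg adjustment over all 3152 RNAs, 39 were higher with PD-L1 at an adjusted p under 0.05 and 0 were lower, and 97.7% of the table were higher. The median log2 difference of the 40 was 3.35 (quartiles 2.89 and 4.39), and that of the table was 3.42. With zeros replaced by 1.81, the smallest score above 0, the medians were 3.14 and 3.05. These shares and medians are close to those of the table and do not set channel and receptor RNAs apart.

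**Figure D2:**
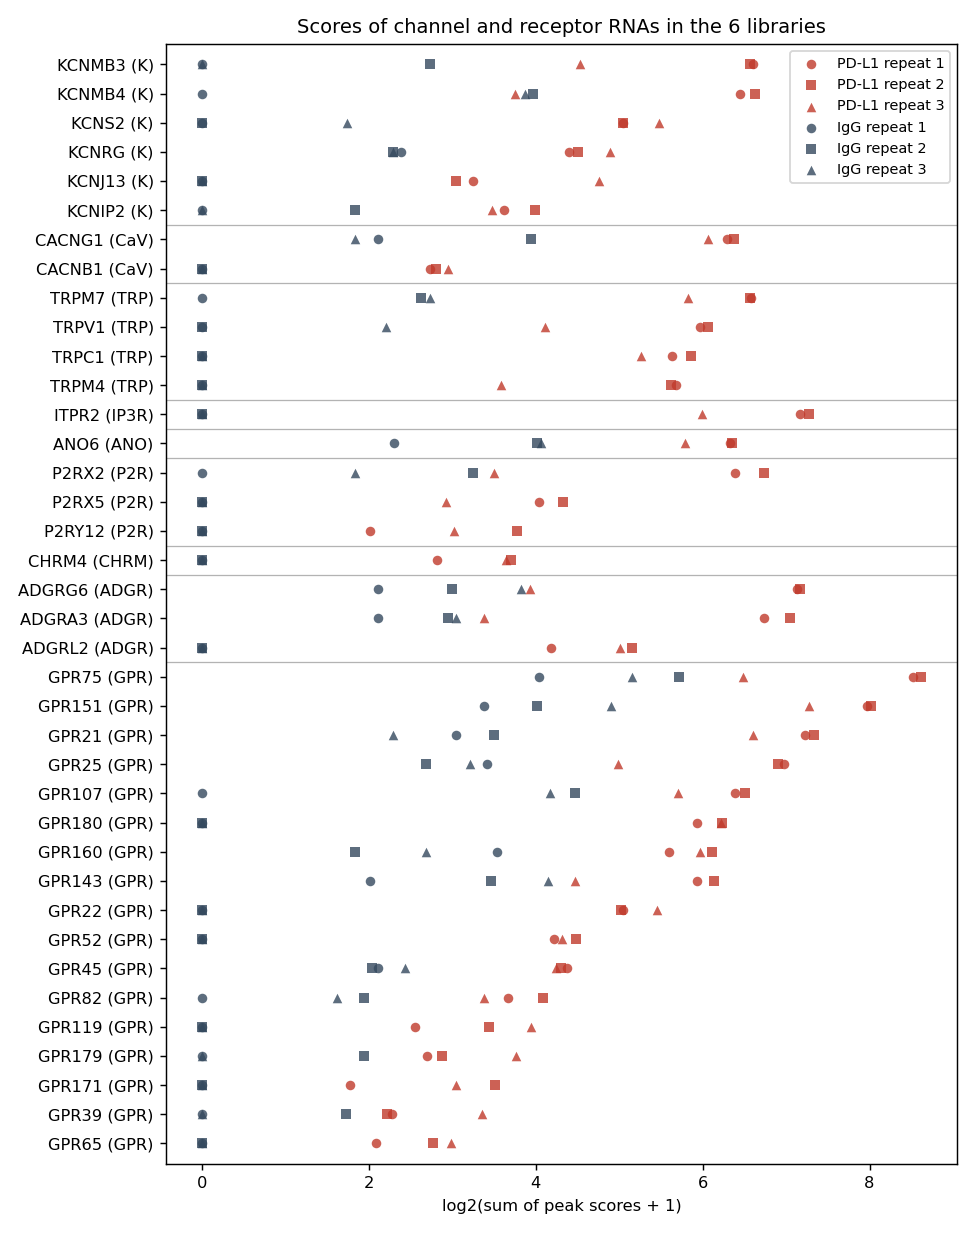
Score of 38 of the 40 RNAs in the 6 libraries, as log2(score + 1) on the x axis, with PD-L1 libraries in red and IgG libraries in dark grey, and a marker shape for each repeat. RNAs are grouped by the short class name in brackets and sorted by mean PD-L1 score within a class. In KCNMB4 alone the groups overlap, and 15 of the 38 have all 3 IgG points at 0.

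KCNMB4, an auxiliary beta subunit of the large-conductance calcium-activated potassium (BK) channel, was the RNA whose groups overlapped. Its scores were 85.9, 97.4 and 12.4 with PD-L1 against 0, 14.7 and 13.6 with IgG. PD-L1 repeat 3 was below IgG repeats 2 and 3 there. Its log2 difference of 2.99 ± 1.33 (SE) did not pass (limma, adjusted p = 0.0662), though it did with zeros replaced by the smallest score (2.72, limma, adjusted p = 0.0465).

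The result also depends on how the libraries are scaled. Bringing them to an equal sum over all listed RNAs (rescaled) takes away, by construction, the difference in summed score between libraries. RNAs with high scores weigh most in that sum, and all listed RNAs were selected as higher with PD-L1. What is left compares an RNA with the summed score and does not test whether it stood above IgG. A value of 0 is not that of a typical listed RNA, since 2497 of the 3152 were above 0 with rescaled libraries. With rescaled libraries 16 of the 40 were higher (limma with Benjamini-Hochberg adjustment) and 0 lower, against 31.4% and 1.9% of the table. These 16 were the 16 RNAs at 0 in all IgG libraries, and 0 of the 24 with an IgG score passed. Over all listed RNAs, 956 of 1000 RNAs at 0 with IgG and 34 of 2152 with an IgG score passed (95.6% and 1.58%). A score of 0 stays 0 under any rescaling, so passing here largely restates which RNAs were at 0 with IgG. The median of all listed RNAs moved by -1.66 on the log2 scale, from 3.42 to 1.76, and that of the 24 from 3.15 to 0.36, while that of the 2152 with an IgG score moved from 3.20 to 0.85. The rescaled log2 difference was below 0 in 9 of the 24 (37.5%), without passing, and in 655 of the 2152 (30.4%). These RNAs lay below the difference in summed score and not below IgG. The 9 were ADGRA3, ADGRG6, ANO6, GPR25, GPR45, GPR75, GPR143, GPR160 and KCNRG.

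**Figure D3:**
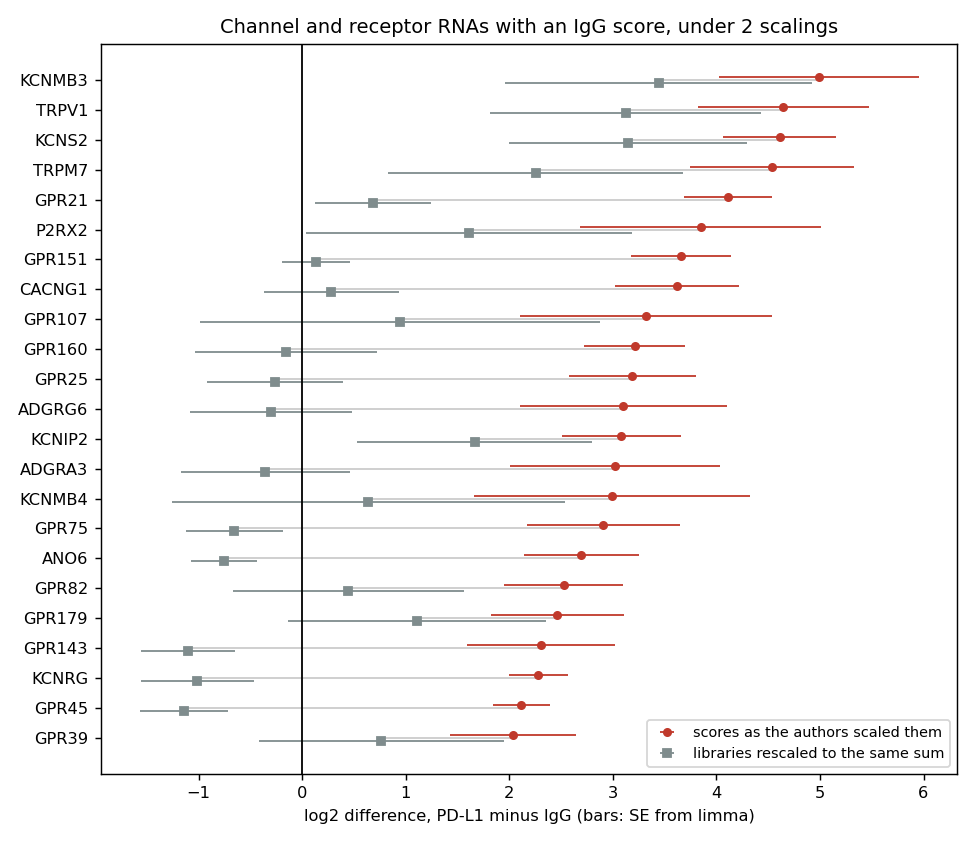
Log2 difference between PD-L1 and IgG (x axis, bars are SE from limma, 3 libraries a group) for 23 of the 24 RNAs with a score in at least 1 IgG library, with scores as the authors scaled them in red and rescaled libraries in grey. All 23 red points are above 2 on the log2 scale, while 9 grey points are below 0. Rescaling takes away the difference in summed score between libraries, so 0 on the grey scale is not the level of IgG or of a typical listed RNA.

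Among the receptors named GPR with a number, summed scores spanned the widest range. All 19 were higher with PD-L1 in limma, as were 97.7% of the table by its selection. With rescaled libraries 5 of them (GPR25, GPR45, GPR75, GPR143 and GPR160) were below 0. At 0 in all IgG libraries were 7 of the 19, against 31.7% of the table. The highest score of the 40 RNAs belonged to GPR75 (Entrez 10936, chromosome 2), a receptor studied in body weight control, at 367, 393 and 88.5 with PD-L1 against 15.4, 51.7 and 34.5 with IgG. The groups did not overlap, but PD-L1 repeat 3 stood well below repeats 1 and 2. The log2 difference was 2.91 ± 0.74 (SE; limma, adjusted p = 0.00926), and -0.66 with rescaled libraries.

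GPR151 (Entrez 134391, chromosome 5), a receptor known from habenula neurons, scored 249, 259 and 154 with PD-L1 against 9.37, 15.2 and 28.8 with IgG. Each PD-L1 score was more than 5 times the highest IgG score. Its log2 difference was 3.66 ± 0.48 (SE; limma, adjusted p = 0.00073). GPR25, a receptor of lymphocytes, scored 125, 119 and 30.7 against 9.67, 5.40 and 8.23, without overlap and again with the lowest PD-L1 score in repeat 3.

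GPR180, which is linked to vascular smooth muscle growth, had the highest score of those at 0 in all IgG libraries in this group, at 60.1, 73.8 and 73.7. It was 1 of the 3 RNAs with the largest difference on the log2(score + 1) scale, with ITPR2 and TRPC1. GPR22, a receptor of heart and brain, scored 31.9, 31.4 and 42.9, and GPR52, a striatal receptor that raises cyclic AMP, scored 17.6, 21.4 and 19.0. Both were at 0 with IgG and had no low PD-L1 library. GPR119, a lipid receptor of pancreatic and gut endocrine cells, GPR171 and GPR65, a proton-sensing receptor of immune cells, were also at 0 with IgG, at mean PD-L1 scores of 9.65 ± 4.73, 6.67 ± 3.99 and 5.31 ± 1.88 (SD, n = 3). In PD-L1 repeat 1 GPR171 and GPR65 scored 2.42 and 3.23, near the smallest listed score of 1.81.

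At the other end, the 3 smallest log2 differences were those of GPR39, GPR45 and KCNRG. GPR39, a zinc-sensing receptor, scored 3.84, 3.63 and 9.21 with PD-L1 against 0, 2.31 and 0 with IgG. PD-L1 repeats 1 and 2 were near the smallest listed score of 1.81, and the highest score was that of PD-L1 repeat 3. The log2 difference of 2.04 ± 0.61 (SE) passed (limma, adjusted p = 0.0174), but not without PD-L1 repeat 3 (1.67, limma, adjusted p = 0.0692) or IgG repeat 3 (1.75, 0.0525). GPR45, an orphan receptor of the brain, scored 19.8, 18.7 and 17.9 against 3.32, 3.09 and 4.37, even within both groups, with a log2 difference of 2.12 ± 0.27 (SE) and -1.14 with rescaled libraries.

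Ratios nearest to the authors' limit of 5 were those of GPR143 (5.06) and GPR45 (5.23). GPR143, the melanosome receptor altered in ocular albinism, scored 60.1, 69.3 and 21.2 against 3.02, 10.0 and 16.7. PD-L1 repeat 3 was close to IgG repeat 3 there, and the log2 difference of 2.31 ± 0.71 (SE) lost its call without PD-L1 repeat 1 (2.10, limma, adjusted p = 0.0761) or repeat 2 (2.00, 0.0778). It was -1.10 with rescaled libraries. GPR107, a protein of the Golgi, scored 82.5, 89.6 and 51.1 against 0, 21.1 and 17.0 and lost its call without PD-L1 repeat 1 (3.22, limma, adjusted p = 0.110), repeat 2 (3.17, 0.114) or repeat 3 (3.56, 0.0976). GPR160, GPR82 and GPR179, the last a protein of retinal bipolar cells, had mean PD-L1 scores of 59.2 ± 10.7, 12.4 ± 3.34 and 8.13 ± 3.89 (SD, n = 3). Of these GPR179 lost its call without PD-L1 repeat 3 (2.14, limma, adjusted p = 0.0501).

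Adhesion receptors have long extracellular regions that bind neighbouring cells and matrix and are cut at an autoproteolysis site. All 3 were higher with PD-L1 in limma, as were 97.7% of the table, and ADGRG6 and ADGRA3 were below 0 with rescaled libraries. The 3 fell into unlike patterns across the PD-L1 libraries. ADGRG6, which is needed for myelination by Schwann cells, scored 139, 143 and 14.2 with PD-L1 against 3.32, 6.94 and 13.1 with IgG. ADGRA3 scored 106, 131 and 9.38 against 3.32, 6.69 and 7.21. In both, PD-L1 repeat 3 was at about the level of the highest IgG library while repeats 1 and 2 were far above it. Their log2 differences were 3.10 ± 1.00 and 3.02 ± 1.02 (SE), and -0.30 and -0.35 with rescaled libraries. ADGRG6 lost its call without PD-L1 repeat 1 (2.58, limma, adjusted p = 0.0898), PD-L1 repeat 2 (2.55, 0.0899) or IgG repeat 1 (2.67, 0.0598), and ADGRA3 without the same libraries (2.51, 0.103; 2.36, 0.100; 2.73, 0.0670). ADGRL2, a latrophilin of synapses, was at 0 with IgG and scored 17.2, 34.6 and 31.2, with the lowest PD-L1 score in repeat 1.

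Purinergic receptors respond to extracellular nucleotides. P2RX2, an ATP-gated cation channel of sensory neurons, scored 83.0, 105 and 10.3 with PD-L1 against 0, 8.48 and 2.57 with IgG, again with PD-L1 repeat 3 close to the highest IgG score. Its log2 difference of 3.85 ± 1.16 (SE) passed (limma, adjusted p = 0.0177), but not without PD-L1 repeat 1 (3.42, limma, adjusted p = 0.0765) or repeat 2 (3.25, 0.0768). P2RX5, another ATP-gated channel, scored 15.4, 19.0 and 6.55, and P2RY12, the ADP receptor of platelets and microglia, scored 3.03, 12.7 and 7.08. Both were at 0 with IgG. CHRM4, a muscarinic acetylcholine receptor that inhibits adenylyl cyclase, was the only classical neurotransmitter receptor among the 40, at 6.05, 12.0 and 11.5 with PD-L1 and 0 in all IgG libraries.

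Channel RNAs came from pores and from auxiliary subunits. ITPR2, an IP3 receptor that releases calcium from the endoplasmic reticulum, had the highest channel score and the largest difference of the 40 on the log2(score + 1) scale, at 143, 154 and 62.7 with PD-L1 and 0 in all IgG libraries. TRP channels are cation channels that sense ligands, heat or calcium. Log2 differences of the 4 ran from 4.54 to 5.58. Their mean PD-L1 scores ran from 36.4 to 81.2, against a median of 31.2 in the table. With rescaled libraries 2 of the 4 passed, both at 0 in all IgG libraries. TRPM7, a divalent cation channel fused to a kinase, scored 94.6, 93.4 and 55.6 against 0, 5.14 and 5.66, and differed by log2 4.54 ± 0.80 (SE; limma, adjusted p = 0.00222). With rescaled libraries it was 2.25 and did not pass. TRPC1, a channel linked to calcium entry, scored 48.4, 57.0 and 37.2 and TRPM4, a calcium-activated channel for sodium and potassium, scored 50.3, 48.1 and 11.0. Both were at 0 with IgG. TRPV1, the capsaicin and heat receptor, scored 61.6, 65.8 and 16.3 against 0, 0 and 3.60. PD-L1 repeat 3 was the lowest PD-L1 library in all 4.

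In the potassium channel group, KCNS2 (a subunit silent on its own) and the inward rectifier KCNJ13 are of the pore-forming kind, and the other 4 are auxiliary subunits or regulators. Of the 6 RNAs 5 were higher with PD-L1 in limma, against 97.7% of the table. Of these 5, KCNRG was below 0 with rescaled libraries. KCNMB4, described above, did not pass. KCNMB3, another BK beta subunit, scored 96.1, 94.0 and 22.2 against 0, 5.66 and 0, with a log2 difference of 4.99 ± 0.96 (SE; limma, adjusted p = 0.00318). KCNS2, which modifies other voltage-gated channels, scored 31.9, 32.1 and 43.6 against 0, 0 and 2.32. KCNRG scored 20.0, 21.8 and 28.7 against 4.23, 3.86 and 3.86, and its log2 difference of 2.28 ± 0.28 (SE) became -1.01 with rescaled libraries. KCNS2 and KCNRG were highest in PD-L1 repeat 3, unlike both BK subunits. KCNJ13 scored 8.47, 7.25 and 26.0 and was at 0 with IgG. KCNIP2, a calcium-binding partner of Kv4 channels, scored 11.3, 14.9 and 10.1 against 0, 2.57 and 0.

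Both calcium channel RNAs encode auxiliary subunits. CACNG1, the gamma subunit of the skeletal muscle channel, scored 77.5, 82.3 and 66.1 against 3.32, 14.4 and 2.57, with a log2 difference of 3.62 ± 0.60 (SE; limma, adjusted p = 0.00179). With rescaled libraries it was 0.28 and did not pass. CACNB1, the cytosolic beta subunit of the same channel, scored 5.65, 5.99 and 6.73 and was at 0 with IgG. ANO6, which scrambles phospholipids in the plasma membrane when calcium rises, scored 79.1, 80.5 and 54.3 against 3.93, 15.2 and 15.7, without overlap, and its log2 difference of 2.69 ± 0.56 (SE) became -0.76 with rescaled libraries.

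PD-L1 repeat 3 stood apart from the other PD-L1 repeats, as it did over the whole table. Its scores summed to 123921 over all listed RNAs, against 206525 and 217732 in PD-L1 repeats 1 and 2. A low score in repeat 3 is thus in part shared by the whole library. Spearman correlations of scores across the 40 RNAs, which share their libraries, were 0.975 between PD-L1 repeats 1 and 2, 0.642 between repeats 1 and 3 and 0.624 between repeats 2 and 3. Repeat 3 was below both others in 23 of the 40 and above both in 10, against 63.8% and 23.9% of the table. As a percentage of the mean of repeats 1 and 2, it ran from 7.93% for ADGRA3, 10.1% for ADGRG6 and 10.9% for P2RX2 to 214% for GPR179, 247% for GPR39 and 331% for KCNJ13. In 9 of the 40 (22.5%) it was under 30%, against 14.1% of the table. The 3 highest percentages rest on low scores, with means of repeats 1 and 2 below 10.

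The deviation of repeat 3 differed between RNAs with an IgG score and those at 0 with IgG. Among the 24 RNAs with an IgG score, repeat 3 was the lowest PD-L1 library in 19 (79.2%) and had a median of 61.3% of the other repeats. Among the 16 at 0 with IgG it was the lowest in 4 (25%), namely ITPR2, TRPC1, TRPM4 and P2RX5, and had a median of 115%. In the table the contrast was smaller, with repeat 3 lowest in 69.4% of RNAs with an IgG score and 51.7% of those at 0, and medians of 65.8% and 84.0%. The difference between members and table was not tested. Mean PD-L1 scores also differed between these sets, with medians of 68.5 and 13.8, and the part of either in the result was not tested. With PD-L1 libraries rescaled to the same sum, repeat 3 was the lowest in 12 of the 40, against 34.0% of the table.

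**Figure D4:**
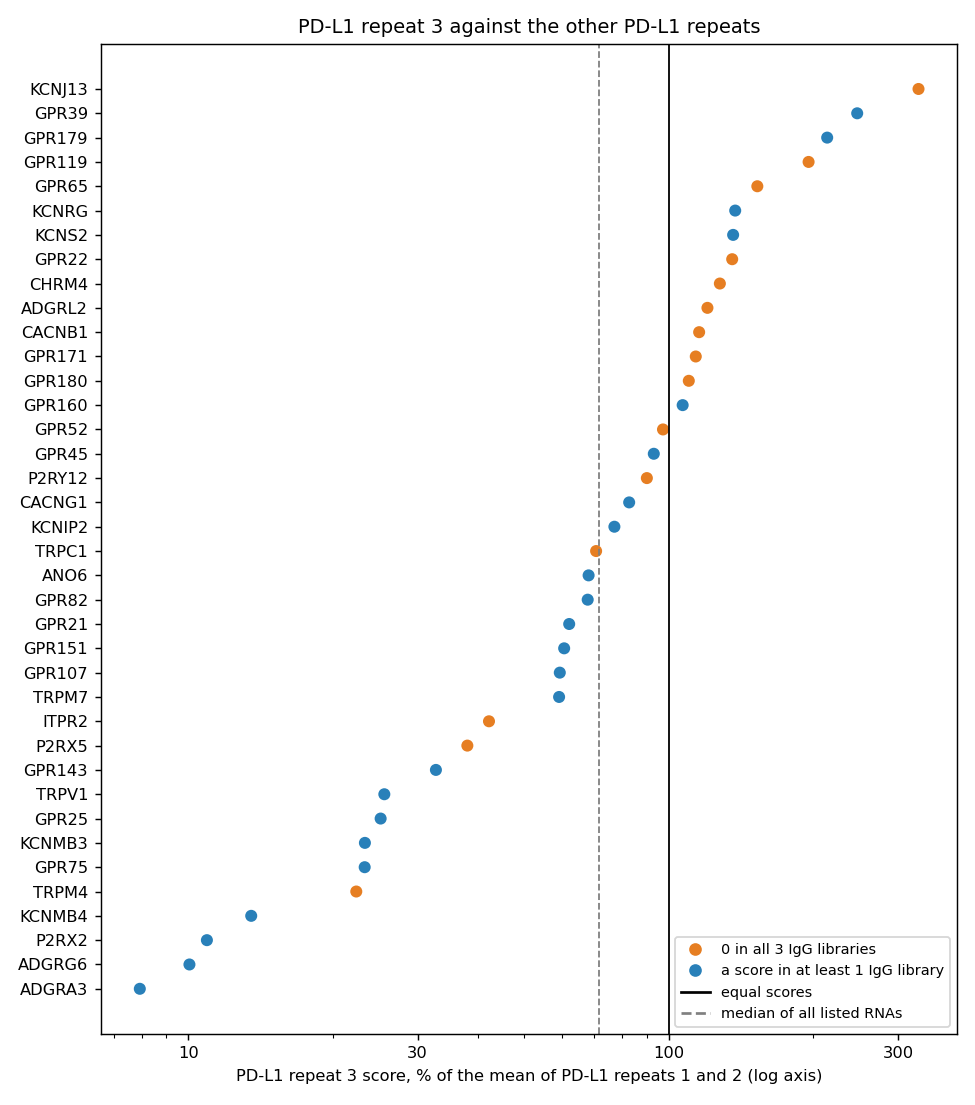
Score of PD-L1 repeat 3 as a percentage of the mean of PD-L1 repeats 1 and 2 (x axis, log scale) for 38 of the 40 RNAs, sorted. Orange points are RNAs at 0 in all IgG libraries and blue points have an IgG score. The values run from 7.93% for ADGRA3 to 331% for KCNJ13, and the dashed line is the median of the table, 71.5%.

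Many of these genes share their place in the genome with another gene, which matters because the score is a sum over peaks assigned to a gene and neither the rule of assignment nor its use of strand is given in the sources used here. Neighbours were taken from GENCODE release 29 on GRCh38, while the processing notes name hg19, so annotation may differ from that behind the scores. In it 15 of the 40 overlap another protein-coding gene (37.5%, against 32.5% of the 3092 listed RNAs found there). Of these 9 lie wholly inside one (22.5%, against 3.72%). They are GPR21 in RABGAP1, GPR52 in RABGAP1L, GPR75 in its readthrough gene GPR75-ASB3, GPR22 in COG5, GPR82 in CASK, GPR171 and P2RY12 in MED12L, KCNJ13 in GIGYF2 and KCNS2 in STK3. All but GPR21, GPR52 and GPR75 lie on the opposite strand of the gene around them. RABGAP1, RABGAP1L and STK3 were themselves listed, as were PIK3CA and SHPK, which partly overlap KCNMB3 and TRPV1.

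GPR21 and GPR52 are close relatives on chromosomes 9 and 1, each inside 1 of a pair of related genes. They are compared here with each other, and below with the genes around them. Their coding sequences, both on 1 exon, are 66.8% identical over 1041 aligned bases, with no identical run longer than 14. Their most alike ungapped stretch of 120 bases has 95 identical and 25 different bases. It is printed here from the GENCODE release 29 transcripts, with different bases in capitals, at chr9:123034717-123034836 on the plus strand for GPR21 and chr1:174448298-174448417 on the plus strand for GPR52 (GRCh38).
GPR21: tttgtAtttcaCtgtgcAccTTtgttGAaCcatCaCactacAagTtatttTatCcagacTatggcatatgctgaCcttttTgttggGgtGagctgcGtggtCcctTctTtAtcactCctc
GPR52: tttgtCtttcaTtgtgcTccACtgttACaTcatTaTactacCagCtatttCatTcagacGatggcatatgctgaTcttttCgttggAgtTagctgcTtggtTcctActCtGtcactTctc
Capitals are spread over the whole stretch, so the 2 RNAs differ along all of it. GPR21 scored 149, 161 and 95.9 with PD-L1 against 7.26, 10.3 and 3.86 with IgG. They differed by log2 4.11 ± 0.43 (SE; limma, adjusted p = 0.00029), and 0.69 with rescaled libraries, which did not pass. GPR52, at 17.6 to 21.4 with PD-L1 and 0 with IgG, was lower in every PD-L1 library.

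The genes around them gave another order. RABGAP1, a GTPase-activating protein, scored 45.0, 51.7 and 48.1 against 3.32, 9.77 and 8.23, below GPR21 in all 3 PD-L1 libraries. Its relative RABGAP1L scored 81.5, 83.0 and 54.0 against 0, 2.57 and 2.57, above GPR52 in all 3. Of the 50-base stretches of the GPR21 transcript 97.2% also occur in RABGAP1 transcripts, so the score of GPR21 cannot be told apart from one of RABGAP1 by sequence. Of those of GPR52, 0 occur in annotated transcripts of another gene, and only such transcripts were searched. GPR52 lies inside RABGAP1L on the same strand, so unspliced RABGAP1L RNA would carry its sequence. Its score cannot be told apart from such RNA either.

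Of the other listed neighbours, PIK3CA and STK3 lie on the opposite strand and SHPK on the same strand. PIK3CA, a lipid kinase, scored 21.6, 18.3 and 25.5 and was at 0 with IgG, whereas KCNMB3 fell to 22.2 in PD-L1 repeat 3. STK3, a kinase of the Hippo pathway, scored 24.8, 27.4 and 14.2, lowest in the repeat where KCNS2 was highest. SHPK, a sugar kinase, scored 19.0, 14.2 and 4.96 against 0, 2.83 and 0, and like TRPV1 was lowest in PD-L1 repeat 3. Shared sequence was also found for P2RX5 (96.9% of stretches, with the readthrough gene P2RX5-TAX1BP3), KCNRG (67.3%, TRIM13), TRPV1 (51.0%, an overlapping gene known by a clone name), KCNMB3 (26.8%, the pseudogene KCNMB3P1), ADGRA3 (9.45%) and GPR75 (5.52%, GPR75-ASB3). How far this affects the scores of these RNAs is not known, since peak positions are not given. In the remaining 33 RNAs the shared part was under 5%. Some of them, such as KCNS2 and GPR52, lie inside another gene, so a low shared part does not make a score certain.

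**Figure D5:**
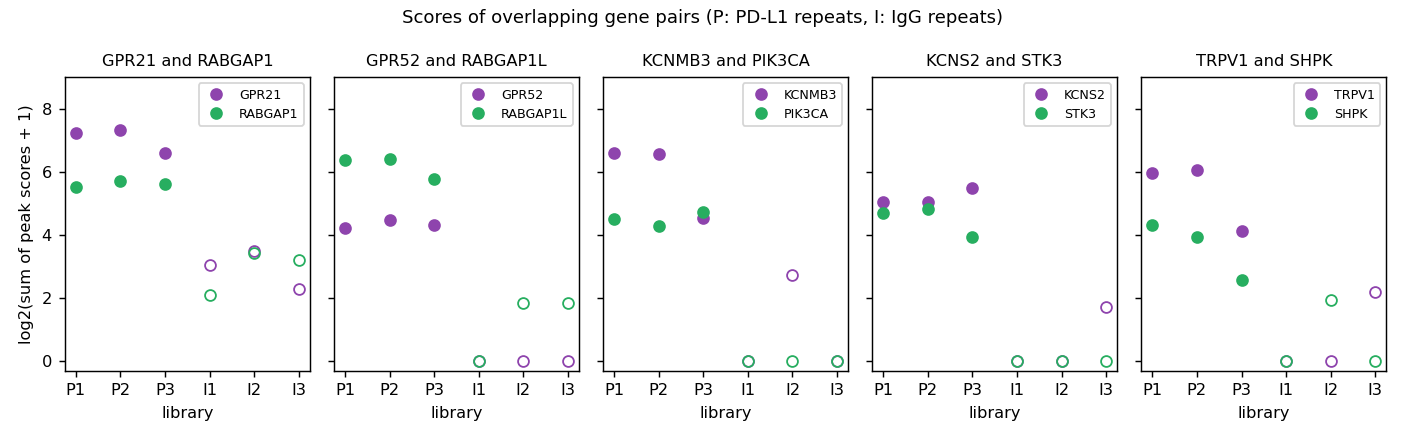
Scores, as log2(score + 1) on the y axis, of 5 channel or receptor genes (purple) and the listed gene each overlaps (green) in PD-L1 repeats 1 to 3 (filled, P1 to P3) and IgG repeats 1 to 3 (open, I1 to I3). GPR21 is above RABGAP1 in all PD-L1 libraries and GPR52 below RABGAP1L in all of them.

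Gene structure was compared with that of the table as a description, with no test. The longest coding sequence of 17 of the 40 (42.5%) lies on 1 exon, against 4.09% of the table, and 14 of the 17 are GPR-numbered receptors. The other 3 are KCNS2, P2RY12 and CHRM4. Gene spans ran from 1.01 kb for GPR119 to 686 kb for ADGRL2, with a median of 19.9 kb against 58.7 kb in the table, and the median exon length was 3.59 kb against 6.28 kb. The 17 with 1 coding exon had a median PD-L1 score of 19.3 and the other 23 a median of 50.2, and repeat 3 was the lowest PD-L1 library in 7 and in 16 of them.

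Scores are sums and are not given per length. Divided by the exon length of the gene in GENCODE release 29, the mean PD-L1 score was highest for GPR75 (134 per kb of exon), GPR21 (115), GPR25 (74.7), GPR151 (71.5) and CACNG1 (59.5), and lowest for CACNB1 (0.863), GPR179 (0.994) and GPR65 (1.17). ITPR2, among the 4 highest by sum, had 9.40 per kb of exon. Whether peaks lay in exons is not known, so these levels per kb describe the annotation used. Across the 40 RNAs the Spearman correlation of the mean PD-L1 score was 0.206 with exon length and 0.687 with the mean IgG score, against 0.245 and 0.715 across the table, where all points share the same 6 libraries.

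The partners of these proteins were taken from lists by symbol. Of 28 listed RNAs of G proteins and of enzymes and anchors of cyclic AMP and calcium signalling, 27 were higher with PD-L1 in limma with Benjamini-Hochberg adjustment and 0 lower, 5 being below 0 with rescaled libraries, with a median log2 difference of 3.00 against 3.42 for the table. RAPGEF6, an exchange factor for the GTPase Rap, led them at 376, 402 and 241 against 18.4, 24.2 and 21.4, followed by the kinase anchor AKAP10 (160, 180 and 89.9 against 7.55, 5.40 and 18.3) and by RAPGEF2 (170, 199 and 58.1 against 6.65, 22.1 and 20.6). In each of the 3 the groups did not overlap and PD-L1 repeat 3 was the lowest PD-L1 library, as in 20 of the 28 and in 63.8% of the table.

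Channels under other symbols had 13 listed RNAs, 12 of them higher and 0 lower (1 below 0 with rescaled libraries), with a median log2 difference of 3.55. Of the 13, 7 were at 0 with IgG, against 31.7% of the table. The same held for 7 of the 28 signalling RNAs above and 1 of the 6 receptors under other symbols. PKD2, a cation channel of cilia, scored 260, 271 and 123 against 6.65, 12.4 and 14.2, its relative PKD2L2 scored 117, 112 and 31.2 against 0, 0 and 7.98, and the lysosomal channel TPCN1 scored 54.3, 49.2 and 52.7 against 4.23, 6.17 and 7.20. TPCN1 was even across the PD-L1 libraries. Receptors under other symbols had 6 listed RNAs, all higher (2 below 0 with rescaled libraries), with a median of 2.90. GABBR1, a subunit of the GABA-B receptor, scored 122, 148 and 39.8 against 4.53, 2.83 and 6.17, the chemokine scavenger ACKR4 scored 76.9, 79.8 and 36.9 against 6.65, 3.86 and 10.0, and LPAR6, a lysophosphatidic acid receptor, scored 81.2, 72.2 and 26.8 against 3.02, 14.9 and 17.5. All 3 were lowest in PD-L1 repeat 3 among the PD-L1 libraries. Over the 3 lists together the counts of higher RNAs are near the 97.7% of the table and set none of them apart. With rescaled libraries 2497 of the 3152 listed RNAs were above 0.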

How the data were processed

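RNA immunoprecipitation libraries from MDA-MB-231 (3 PD-L1, 3 IgG) were analysed from the authors' table. Per the file headers, the deposited values are a score, the sum of peak scores per gene and library, of unstated scaling and unknown depth. Per the submitters' processing notes, TopHat2 2.0.14, HOMER 4.8.3 and build hg19 were used, without roles. Per the series' design text, the authors kept RNAs at least 5-fold above IgG. The deposited Gene Ontology table holds gene counts and a p-value per term, copied from the authors and not recomputed.

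Group differences on log2(score + 1) come from limma 3.58.1 (R 4.3.3), over all 3152 RNAs, with Benjamini-Hochberg adjustment at 0.05 and no filter. The fit was also run on simulated normal data. These held no selection and no scores fixed at 0, so they cannot show that the fit suits these scores. Fold changes on this scale understate those of low scores. Alternatives were other pseudocounts, filters, scalings, priors, the repeat number as a block, and leaving out each library. Gene structure came from GENCODE release 29. Named RNAs are, by rule, the 10 RNAs of highest mean PD-L1 score, the highest of each class, the extremes of log2 difference, ratio and repeat 3 share, and those that overlapped or did not pass. Others were named to account for the rest, except that 2 of the 40, counted in all totals, are not reported here. Members and lists were chosen with earlier results of these data known.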

Additional observations from a re-analysis of the deposited data

How the results depend on the processing

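The limits lie in the scaling, the zeros and a table selected for 1 direction, with the number of reads unknown. Rescaling takes away the difference in summed score between libraries. With rescaled libraries 990 listed RNAs and 16 of the 40 passed, with a median log2 difference of the 40 of 1.82, and the log2 difference was below 0 for ADGRA3 (-0.35), ADGRG6 (-0.30), GPR25 (-0.26), GPR160 (-0.15), GPR75 (-0.66), ANO6 (-0.76), KCNRG (-1.01), GPR45 (-1.14) and GPR143 (-1.10). Rescaled and without PD-L1 repeat 3, chosen after seeing the data, the counts were 971 and 14, the median was 1.71, and GPR160 (-0.44), GPR75 (-0.22), ANO6 (-0.83), KCNRG (-1.40), GPR45 (-1.35) and GPR143 (-0.84) were among those below 0. In that setting GPR171 (1.81, limma, adjusted p = 0.0621) and P2RY12 (2.03, 0.0515) no longer passed. With libraries rescaled and none left out, the number with PD-L1 repeat 3 lowest moved from 23 to 12. Before rescaling the sum of PD-L1 repeat 3 was lower than those of repeats 1 and 2, and why it was lower was not tested. Pseudocounts of 0.1 and 0.01 moved the median to 5.51 and 7.22. At these, 38 and 32 of the 40 passed, and 2798 and 2298 of the 3152 listed RNAs. The calls of TRPM7, P2RX2, ADGRA3, GPR179, GPR82, GPR39 and GPR107 ended with 0.01, and that of GPR107 also with 0.1. A mean score of at least 10 left 26 of the 40, of which 25 passed, 25 had separate groups and 6 were at 0 with IgG, as fewer RNAs were tested. With 1 library left out, 34 to 39 of the 40 and 2730 to 3032 listed RNAs passed, the median ran from 3.24 to 3.66, 16 to 20 were at 0 with IgG and 39 to 40 had separate groups. With the repeat number as a block 39 of the 40 and 3091 listed RNAs passed, with a median of 3.35, and no call among the 40 changed. Deviations of same-numbered libraries correlated at -0.121, 0.071 and -0.079, and not every library correlated best with its own number. No pairing by number was seen, but deviations from means of 3 libraries cannot show that there was none. With a trend in the prior variance no call among the 40 changed.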
